A study of Mus musculus with 38 samples.

Results

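The 10 genes described here build or supply the blood-brain barrier: *Mfsd2a* and *Cd36* (lipid transport), *Slc2a1*, *Slco1c1* and *Abcb1a* (other transporters), *Cldn5* and *Ocln* (tight junctions), and *Pecam1*, *Tek* and *Angpt1* (endothelial surface and vessel stability). They were taken by name from the 19937 genes that have a probe set with a single gene symbol. The rule called for the brightest such probe set of a gene, and as each of the 10 had only 1, the brightness chose nothing. The genes were picked by name with the results of these comparisons known, so that counts over them are a description. RNA from the hypothalamus of female FVB/N mice was hybridised to 38 Mouse Gene ST arrays, 1 for each mouse, and levels are log2 intensities. In the AAV experiment, 18Q (n = 5) and 79Q (n = 8) mice had received, on both sides of the hypothalamus at 8 weeks of age, an rAAV5 vector with an 853 amino acid N-terminal fragment of human HTT carrying 18 or 79 CAG repeats under the neuronal human Synapsin-1 promoter. They were taken 4 weeks later, at 12 weeks of age, beside uninjected WT control mice (n = 5). As no group received a vector without HTT, the injection, the vector and the HTT fragment cannot be told apart in these comparisons with WT. BACHD mice, which express full-length human mutant HTT with 97 CAG repeats ubiquitously, were compared with WT littermates at 2 months (n = 6 and 6) and 10 months of age (n = 5 and 3).

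The arrays carried the hypothalamic peptide genes *Pmch* (11.7 to 12.6 on the log2 scale) and *Hcrt* (11.8 to 13.0), and endothelial genes such as *Flt1* (8.53 to 9.43) and *Cdh5* (7.78 to 8.59), in every sample. The endothelial genes *Kdr* (6.82 to 7.63) and *Tie1* (7.02 to 7.78) were dimmer. The peptide genes *Avp* (8.97 to 12.0) and *Oxt* (9.14 to 11.5) varied more between mice. Whether the 18 AAV arrays, the 12 arrays at 2 months and the 8 at 10 months were normalised together was not settled, so that levels are compared only within each of these sets. The lowest correlation between arrays of a set was 0.985. The pituitary and thalamus genes, which mark neighbouring tissue, varied between mice of most groups, and their ranges are given for each experiment. Endothelial cells are a small share of hypothalamic tissue, and in such bulk samples fewer cells of a type and less RNA per cell cannot be told apart.

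Brain capillaries are lined by endothelial cells that are sealed to each other by tight junctions and pass few vesicles, so that nutrients enter the brain through dedicated carriers. MFSD2A carries docosahexaenoic acid as lysophosphatidylcholine into the brain and keeps vesicle transport through endothelial cells low, while CD36 takes up long-chain fatty acids and oxidised lipoproteins. GLUT1 (*Slc2a1*) brings in glucose, OATP1C1 (*Slco1c1*) thyroxine, and P-glycoprotein (*Abcb1a*) pumps drugs back to the blood. Claudin-5 and occludin are membrane proteins of the junction strands. PECAM1 is an adhesion molecule between endothelial cells, and angiopoietin-1 (*Angpt1*), made by cells around the vessel, binds the endothelial receptor TIE2 (*Tek*) and stabilises vessels.

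Start-site sequences are shown for 5 members, namely for *Mfsd2a* and *Cldn5*, which passed the test in the AAV experiment, for *Tek* and *Abcb1a*, which varied together between mice, and for *Cd36*, which stood apart at 10 months. Each run holds the 250 bases before and the 50 bases after the annotated start of the gene (RefSeq, GRCm38.p6), 5′ to 3′ on the strand of the gene. Capitals mark CCAAT and the GC box GGGCGG on either strand (ATTGG and CCGCCC on the opposite strand).
Mfsd2a (chr4:122961139-122961438, minus strand): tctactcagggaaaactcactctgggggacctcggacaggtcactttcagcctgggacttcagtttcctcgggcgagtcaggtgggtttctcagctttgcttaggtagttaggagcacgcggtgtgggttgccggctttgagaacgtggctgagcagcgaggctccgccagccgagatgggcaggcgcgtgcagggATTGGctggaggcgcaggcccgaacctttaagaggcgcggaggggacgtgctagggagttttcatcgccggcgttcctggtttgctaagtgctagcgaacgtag
Cldn5 (chr16:18776597-18776896, plus strand): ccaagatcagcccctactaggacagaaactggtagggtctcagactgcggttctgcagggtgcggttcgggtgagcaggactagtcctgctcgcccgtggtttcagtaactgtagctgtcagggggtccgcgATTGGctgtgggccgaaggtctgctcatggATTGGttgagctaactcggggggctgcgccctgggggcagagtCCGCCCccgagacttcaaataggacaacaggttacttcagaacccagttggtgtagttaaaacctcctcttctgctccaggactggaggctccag
Tek (chr4:94739039-94739338, plus strand): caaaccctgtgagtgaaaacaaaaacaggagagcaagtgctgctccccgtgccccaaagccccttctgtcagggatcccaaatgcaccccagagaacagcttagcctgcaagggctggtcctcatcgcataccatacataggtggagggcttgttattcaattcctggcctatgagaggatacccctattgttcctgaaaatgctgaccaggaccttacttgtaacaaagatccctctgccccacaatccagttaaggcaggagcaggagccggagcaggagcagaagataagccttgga
Abcb1a (chr5:8566841-8567140, plus strand): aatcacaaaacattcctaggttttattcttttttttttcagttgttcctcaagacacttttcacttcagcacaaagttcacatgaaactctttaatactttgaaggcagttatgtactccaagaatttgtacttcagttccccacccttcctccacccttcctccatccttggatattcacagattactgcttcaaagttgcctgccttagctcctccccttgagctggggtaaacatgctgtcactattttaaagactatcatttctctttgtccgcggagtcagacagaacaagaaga
Cd36 (chr5:17835847-17836146, minus strand): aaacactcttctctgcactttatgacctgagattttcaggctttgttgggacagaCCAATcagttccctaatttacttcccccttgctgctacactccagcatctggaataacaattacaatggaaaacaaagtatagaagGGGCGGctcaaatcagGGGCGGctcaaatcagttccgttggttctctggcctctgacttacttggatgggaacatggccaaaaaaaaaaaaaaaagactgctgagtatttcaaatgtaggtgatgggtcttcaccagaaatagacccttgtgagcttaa
A start-site sequence was matched for 8 of the 10 members. CCAAT was found near the start of 6 of these genes and in 37.4% of all 32851 such sequences, and the GC box near 4 and in 35.7%. The *Mfsd2a* sequence held 1 CCAAT and no GC box, that of *Cldn5* 2 CCAAT and 1 GC box, and that of *Cd36* 1 CCAAT and 2 GC boxes, whereas those of *Tek* and *Abcb1a* held neither. The sterol response element TCACNCCAC (1.24% of all sequences) and the TCF/LEF element ATCAAAG (3.73%) were searched on both strands and matched none of the 8 genes in this window. A match of letters is a description and not a binding site.

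*Mfsd2a*, the lysophosphatidylcholine carrier of the barrier, was lower in the mice injected with either HTT fragment. The levels were 10.62, 10.74, 10.76, 11.07 and 10.88 in the 5 WT control mice and 10.26, 10.37, 10.40, 10.36 and 10.54 in the 5 18Q mice. The groups did not overlap, as the highest 18Q mouse lay below the lowest WT control mouse. In the 8 79Q mice the level ran from 10.05 over a median of 10.20 to 10.68, and only the highest of them, replicate 5, reached into the WT control range. *Mfsd2a* fell by 0.43 on the log2 scale in 18Q vs. WT (SE 0.107, adjusted *p* = 0.0447, exact permutation p = 0.00794, the lower limit of this test with 5 and 5 mice) and by 0.55 in 79Q vs. WT (SE 0.0963, adjusted *p* = 0.00326, exact permutation p = 0.00155), with 5 of 5 and 8 of 8 injected mice below the WT mean. Of the 34760 probe sets as a whole, 2.11% passed the adjusted threshold of 0.05 for 18Q (1.81% as higher, 0.308% as lower) and 2.07% for 79Q (0.581% as lower), and 1.5% lay lower in 18Q without overlap. The lower level in 79Q vs. WT passed in each of the 13 fits that left out 1 mouse, with log2(FC) between -0.61 and -0.49. That in 18Q vs. WT kept its direction and a log2(FC) between -0.47 and -0.36, but passed in only 2 of 10 such fits, those without 18Q replicate 6 or WT control replicate 1.

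**Figure D1:**
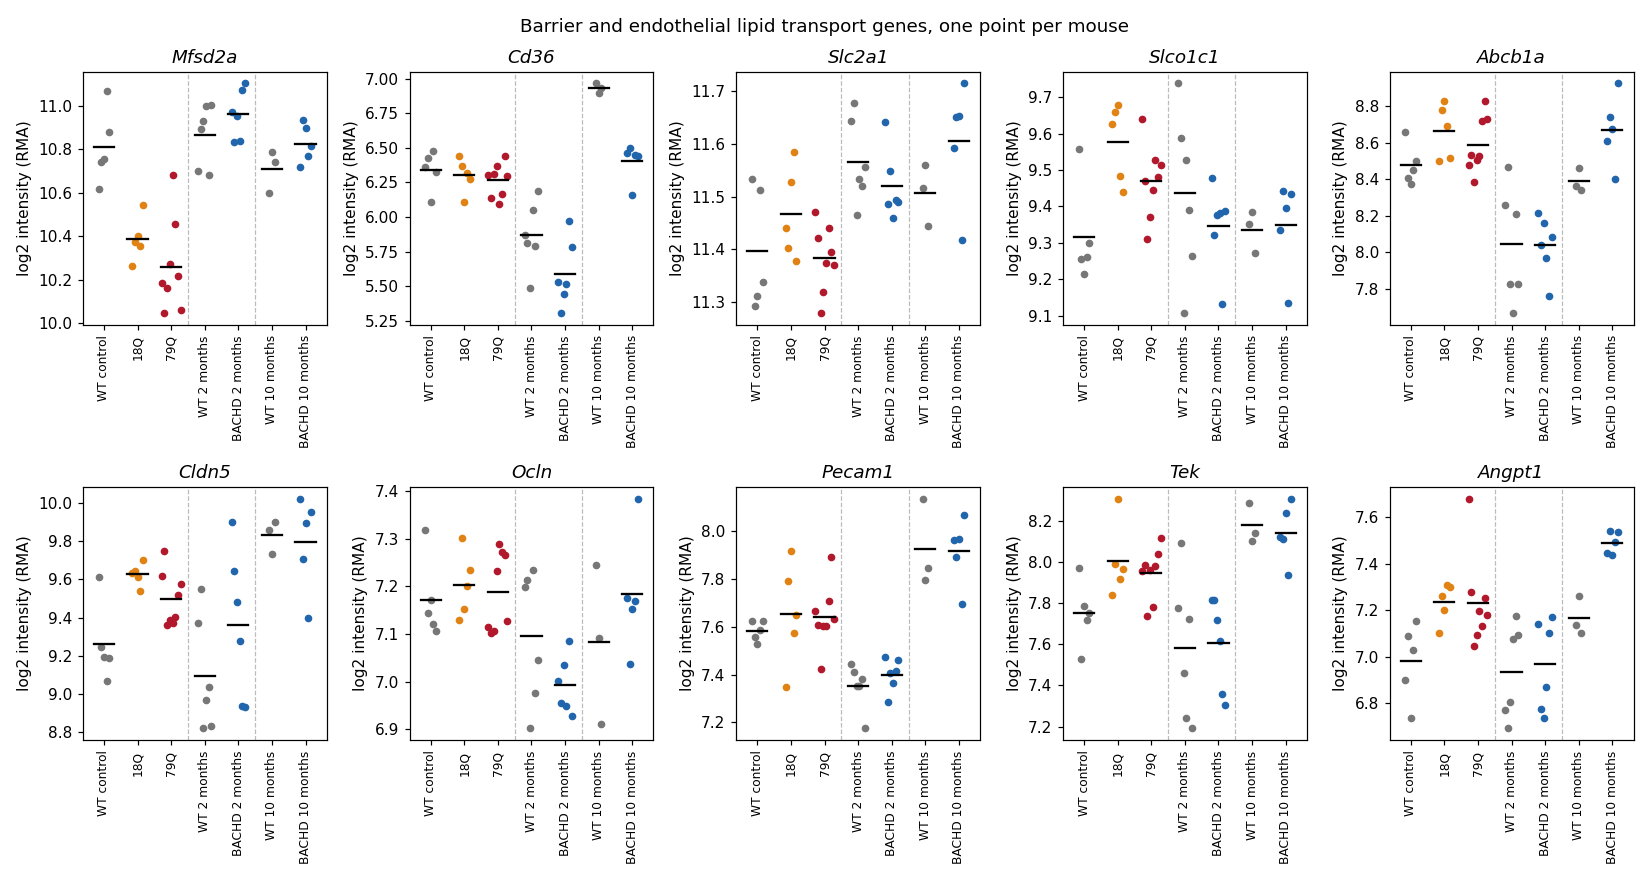
Log2 intensity (RMA) of the 10 genes in each of 38 mice, with a panel for each gene, a point for each mouse, black bars for group means and dashed lines between the sets of arrays that are not compared with each other. *Mfsd2a* lay between 10.05 and 10.68 in the 13 injected mice against 10.62 to 11.07 in WT control mice, and *Cd36* at 10 months between 6.16 and 6.50 in BACHD against 6.90 to 6.97 in WT.

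The direction of the junction gene *Cldn5* was the opposite one. Claudin-5 mRNA was at 9.61, 9.25, 9.20, 9.07 and 9.19 in WT control mice and at 9.64, 9.65, 9.61, 9.54 and 9.70 in 18Q mice, and it ran from 9.36 over a median of 9.46 to 9.75 in 79Q mice. WT control replicate 1 lay within the range of the injected mice, and the other 4 WT control mice lay below all 13 of them. *Cldn5* rose by 0.37 in 18Q vs. WT (SE 0.0890, adjusted *p* = 0.0363, exact permutation p = 0.0159), and in 79Q vs. WT its log2(FC) was 0.24 (SE 0.0803, adjusted *p* = 0.162, exact permutation p = 0.0342). WT control replicate 1 decided the second of these calls, as without it the log2(FC) was 0.32 for 79Q and 0.45 for 18Q (adjusted *p* = 0.0178 and 0.00224). In the other 9 fits that left out 1 mouse, the 18Q call was lost, with adjusted p values of 0.0604 to 0.118. *Ocln*, the other junction protein of the set, was at 7.32, 7.14, 7.17, 7.12 and 7.11 in WT control mice. It lay between 7.13 and 7.30 in 18Q and between 7.10 and 7.29 in 79Q mice. WT control replicate 1 was again the highest control, and the other 4 lay between 7.11 and 7.17. The log2(FC) was 0.03 for 18Q and 0.02 for 79Q, and at most 0.068 and 0.053 in fits that left out 1 mouse. Both main values turned negative when each array was centred on its own median.

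Of the carriers, *Slco1c1* stood closest to the threshold. Its level was 9.56, 9.26, 9.21, 9.26 and 9.30 in WT control mice, 9.63, 9.66, 9.68, 9.48 and 9.44 in 18Q mice, and from 9.31 over a median of 9.48 to 9.64 in 79Q mice. WT control replicate 1 was again the highest of its group, within the range of the injected mice. The log2(FC) was 0.26 in 18Q vs. WT (SE 0.0707, adjusted *p* = 0.0702) and 0.15 in 79Q vs. WT (SE 0.0637, adjusted *p* = 0.279), and the 18Q difference passed without WT control replicate 1 (0.32, adjusted *p* = 0.0113) or without 18Q replicate 6 (0.29, adjusted *p* = 0.0333). The efflux pump gene *Abcb1a* ran from 8.37 to 8.66 in WT control, 8.50 to 8.82 in 18Q and 8.39 to 8.82 in 79Q mice, with a log2(FC) of 0.18 (SE 0.0860, adjusted *p* = 0.387) and 0.11 (SE 0.0775, adjusted *p* = 0.587). *Abcb1a* has a close paralogue, *Abcb1b*, and how far its probes tell them apart was not tested. *Slc2a1*, the glucose carrier, had log2(FC) 0.07 in 18Q vs. WT (95% interval -0.05 to 0.19) and -0.01 in 79Q vs. WT (-0.12 to 0.09).

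The receptor *Tek* and its ligand *Angpt1* had positive log2(FC) values in both injected groups, and neither passed over the whole table. *Tek* was at 7.97, 7.53, 7.79, 7.72 and 7.75 in WT control mice and at 7.84, 8.00, 8.31, 7.92 and 7.97 in 18Q mice, and ran from 7.74 over 7.97 to 8.12 in 79Q mice. Its log2(FC) was 0.25 in 18Q vs. WT (SE 0.0917, adjusted *p* = 0.216) and 0.19 in 79Q vs. WT (SE 0.0827, adjusted *p* = 0.291), and WT control replicate 1 was once more the highest control. *Angpt1* did not share that feature, with 6.90, 7.09, 6.74, 7.03 and 7.15 in WT control mice, 7.10, 7.26, 7.20, 7.31 and 7.30 in 18Q mice, and 7.05 to 7.68 with a median of 7.19 in 79Q mice. The log2(FC) of *Angpt1* was 0.25 in each comparison (SE 0.0998 and 0.0899, adjusted *p* = 0.271 and 0.188), and the highest value was that of 79Q replicate 1. *Pecam1* spread more widely in 18Q mice (7.35 to 7.92) than in WT control mice (7.53 to 7.63), with log2(FC) 0.07 and 0.06 (SE 0.0882 and 0.0795).

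*Cd36*, the second lipid carrier, did not share the lower level of *Mfsd2a* in the AAV experiment. It was between 6.11 and 6.48 in WT control, 6.11 and 6.45 in 18Q and 6.10 and 6.44 in 79Q mice. These ranges nearly coincide, and the log2(FC) was -0.04 in 18Q vs. WT (95% interval -0.20 to 0.13) and -0.08 in 79Q vs. WT (-0.22 to 0.07). *Cd36* was dim, on average above 32.4% of the probe sets of an array in WT control, 31.5% in 18Q and 31.0% in 79Q mice. Between the injected groups, the log2(FC) of all 10 genes in 79Q vs. 18Q was below 0, with a median of -0.07 against -0.01 over all probe sets, and none passed. The endothelial identity genes lay the same way, with 3 of 24 above 0 and a median of -0.04. *Angpt1* changed sign when arrays were centred on their medians, *Ocln*, *Pecam1* and *Tek* with the endothelial mean as a covariate, and *Cd36*, *Ocln*, *Pecam1* and *Angpt1* relative to that mean. The differences included *Mfsd2a* at -0.13 (95% interval -0.33 to 0.08), *Cldn5* at -0.13 (-0.30 to 0.04) and *Slco1c1* at -0.11 (-0.24 to 0.03). No probe set passed in this comparison (0% of the whole), and 4.24% had an unadjusted p under 0.05 by limma, against 0 of the 10 genes.

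**Figure D2:**
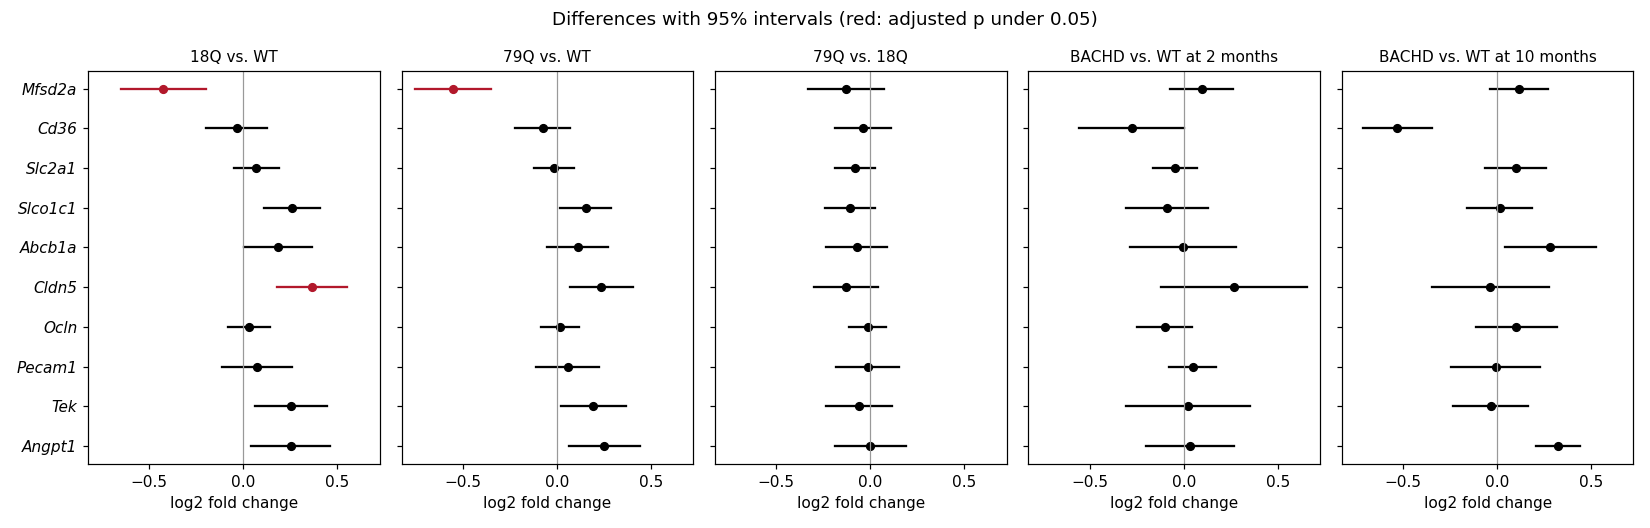
Log2 fold change of the 10 genes in 5 comparisons (points) with the 95% interval of the limma fit (lines), in red where the adjusted p is under 0.05. The red points are *Mfsd2a*, at -0.43 for 18Q and -0.55 for 79Q against WT, and *Cldn5*, at 0.37 for 18Q, and the interval of *Cd36* at 10 months runs from -0.71 to -0.35 without a call.

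Most other transcripts of endothelial cells had a positive log2(FC) in the injected mice, 21 of 24 endothelial identity genes in 18Q and 20 of 24 in 79Q mice, and few of them passed. The mean of these genes, none of them a member of the set, was 7.84 ± 0.0818 (SD, n = 5) in WT control, 7.98 ± 0.102 (n = 5) in 18Q and 7.94 ± 0.0693 (n = 8) in 79Q mice. WT control replicate 1 was at 7.98 and the other 4 WT control mice between 7.78 and 7.84. This mouse was likewise the highest control for *Cldn5*, *Ocln*, *Slc2a1*, *Slco1c1*, *Abcb1a* and *Tek*. Of these 24 genes *Cd34* (0.40, adjusted *p* = 0.0193) and the TGF-beta co-receptor *Eng* (0.45, adjusted *p* = 0.0275) rose in 18Q vs. WT, and *Cd34* (0.35, adjusted *p* = 0.0245) in 79Q vs. WT. The median of the list was 0.11 and 0.07, against -0.01 and -0.02 over all probe sets. With this mean as a covariate *Mfsd2a* kept its direction, at -0.39 in 18Q vs. WT (adjusted *p* = 0.333) and -0.53 in 79Q vs. WT (adjusted *p* = 0.0363). *Cldn5* was then at 0.26 in 18Q vs. WT (adjusted *p* = 0.452), and *Abcb1a* at -0.03 and -0.04. With this covariate fewer of the 34760 probe sets passed, 202 in 18Q vs. WT and 250 in 79Q vs. WT, against 735 and 721 in the main fit. Expressed relative to the same mean, *Mfsd2a* was at -0.57 and -0.65 (adjusted *p* = 0.0134 and 0.00183). This setting subtracts the mean, which was higher in injected mice, from every probe set and so lowers every log2(FC) against WT. Under it 3208 of 34760 probe sets passed in 18Q vs. WT, against 735 in the main fit. In 79Q vs. WT 712 passed, against 721.

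**Figure D3:**
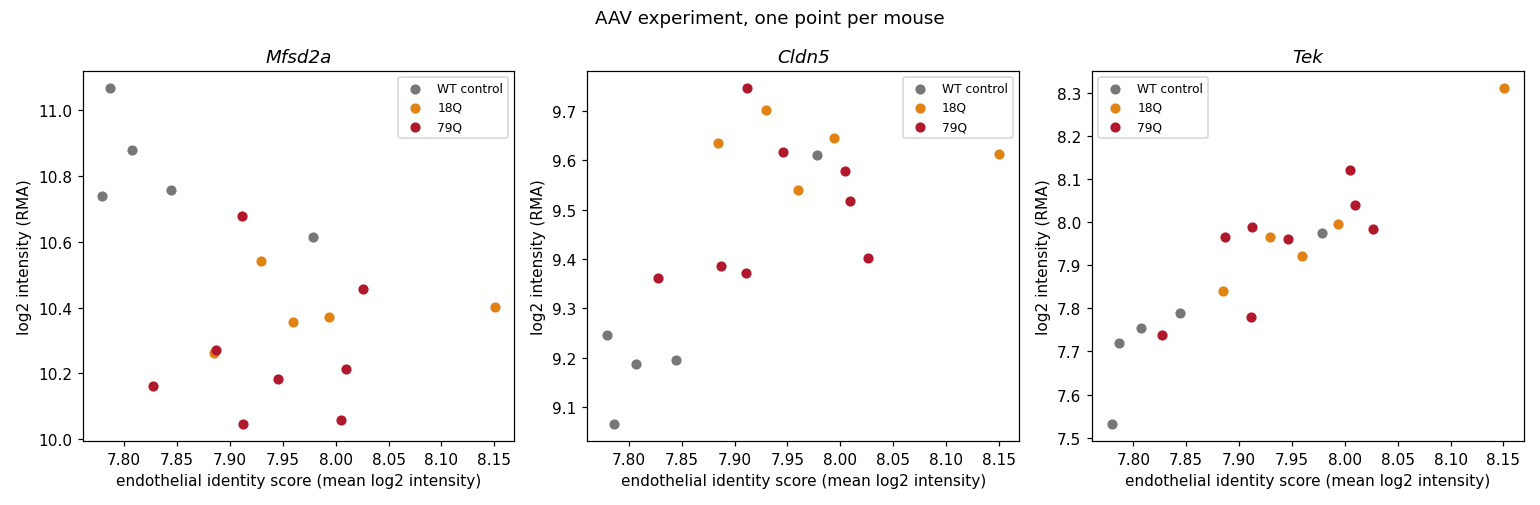
*Mfsd2a*, *Cldn5* and *Tek* (vertical axes, log2 intensity) against the mean log2 intensity of 24 endothelial identity genes (horizontal axes) in the 18 mice of the AAV experiment, a point for each mouse. WT control replicate 1, at 7.98 on the horizontal axis, is the control with the highest *Cldn5* (9.61) and *Tek* (7.97) and the lowest *Mfsd2a* (10.62).

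Few genes of the barrier lists around the set passed in the injected mice, and no measured gene of the 18 lists, which hold no member of the set, passed as lower. Of all probe sets 1.81% passed as higher and 0.308% as lower in 18Q vs. WT, and 1.49% and 0.581% in 79Q vs. WT. Of 14 junction genes 1 rose in 18Q vs. WT, the junctional adhesion molecule *F11r* (0.55, adjusted *p* = 0.0108), and 0 in 79Q vs. WT, where *F11r* was at 0.36 (adjusted *p* = 0.0815). Of 20 barrier transporters 1 rose in each comparison, the organic anion carrier *Slco2b1* (0.35 and 0.29, adjusted *p* = 0.00935 and 0.0227). Of 21 genes of lipid uptake and handling 1 rose in each, the cholesterol exporter *Abca1* (0.42 and 0.31, adjusted *p* = 0.00404 and 0.0206), with list medians of -0.01 and -0.02, close to those of all probe sets. Of 18 genes of the Wnt programme that induces the barrier, 0 passed in 18Q vs. WT and the ligand *Wnt7b* rose in 79Q vs. WT (0.22, adjusted *p* = 0.0127). Of 15 genes of angiopoietin and VEGF signaling 0 passed in either, and the smallest p values in 18Q vs. WT were those of the VEGF receptors *Flt1* (0.25, adjusted *p* = 0.178) and *Kdr* (0.22, adjusted *p* = 0.187). Of 16 mural cell genes 1 rose, the aminopeptidase *Anpep* (0.32 in each comparison, adjusted *p* = 0.0490 and 0.0275).

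Genes of endothelial activation differed more. The list medians were 0.36 (18Q) and 0.31 (79Q). Of 11 measured genes 5 rose in each comparison, where 1.81% (18Q) and 1.49% (79Q) of all probe sets passed as higher. In 18Q vs. WT these included the MHC class II invariant chain *Cd74* (3.33, adjusted *p* = 4.28e-06), *Bst2* (0.84, adjusted *p* = 0.000203), *Lcn2* (0.49, adjusted *p* = 0.00295) and the leukocyte adhesion molecule *Vcam1* (0.46, adjusted *p* = 0.0176). In 79Q vs. WT they included *Cd74* (3.49), *Bst2* (0.61), the leukocyte adhesion molecule *Icam1* (0.56, adjusted *p* = 0.0216) and the oxysterol enzyme *Ch25h* (0.38, adjusted *p* = 0.0255). *Cd74*, *Bst2* and *Lcn2* are made by other cells as well, and which cells made the other called genes of the barrier and activation lists was not tested. Immune and glial markers differed between injected and WT control mice as well, and their part in the results was not tested. Of 13 microglia and macrophage genes 9 rose in each comparison, with a list mean of 7.32 to 7.42 in WT control, 7.87 to 8.27 in 18Q and 7.71 to 8.46 in 79Q mice. Of 7 lymphocyte genes 3 rose in each, *Cd3g* (2.13 and 1.72), *Cd3e* (0.70 and 0.55) and *Cd4* (0.47 and 0.40), and of 8 astrocyte genes *Gfap* (0.77, adjusted *p* = 0.00494) and *Aqp4* (0.52, adjusted *p* = 0.0265) rose in 18Q vs. WT and 0 passed in 79Q vs. WT. The mean of 7 pituitary genes ran from 6.51 to 6.99 in WT control, 6.89 to 8.20 in 18Q and 6.54 to 7.96 in 79Q mice, and 0 of these genes passed. In both comparisons 0 also passed among 10 genes of vascular fibroblasts and meninges, 8 of neurons, 7 of oligodendrocytes, 9 of choroid plexus and ependyma, 5 of blood cells and 8 of the thalamus. The thalamus mean ran from 9.38 to 9.75 in WT control, 9.45 to 10.04 in 18Q and 9.39 to 9.92 in 79Q mice, and within groups of these 18 arrays it had r = 0.63 with *Tek* and 0.61 with *Abcb1a*.

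In BACHD mice at 2 months none of the 10 genes passed, nor did any other probe set (0%), and 0 of the 10 had an unadjusted p under 0.05 by limma, against 4.09% of all probe sets. The members were spread widely within each genotype, with *Cldn5* from 8.82 to 9.55 (median 9.002) in WT and from 8.93 to 9.90 (median 9.38) in BACHD mice. *Tek* likewise ran from 7.19 to 8.10 in WT and from 7.30 to 7.82 in BACHD mice. The log2(FC) was 0.27 for *Cldn5* (95% interval -0.12 to 0.65) and 0.02 for *Tek* (-0.31 to 0.35). *Mfsd2a*, at 10.68 to 11.002 in WT and 10.83 to 11.10 in BACHD mice, had a log2(FC) of 0.09 (-0.07 to 0.26). *Cd36* was the member with the smallest p, at 5.48 to 6.19 (median 5.84) in WT and 5.30 to 5.97 (median 5.52) in BACHD mice, with log2(FC) -0.28 (SE 0.129, adjusted *p* = 0.939, exact permutation p = 0.0823) and 5 of 6 BACHD mice below the WT mean. Its dim signal lay on average above 27.8% of the probe sets of an array in WT and 24.7% in BACHD mice. The mean of 8 thalamus genes ran from 9.46 to 10.99 in WT and from 9.32 to 10.92 in BACHD mice at this age, and with it as a covariate *Cd36* was at -0.34. Within groups at this age the thalamus mean had r = -0.69 with *Cd36* and -0.78 with *Angpt1*. The mean of 9 choroid plexus and ependyma genes reached 9.19 in 1 WT mouse and was at most 7.62 in BACHD mice.

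At 10 months *Cd36* was lower and *Angpt1* higher in BACHD mice, in each case with no overlap between the genotypes and with no call over the whole table. *Cd36* was at 6.97, 6.90 and 6.94 in the 3 WT mice and at 6.46, 6.50, 6.16, 6.45 and 6.44 in the 5 BACHD mice, of which replicate 3 was the lowest. These are dim levels, on average above 44.3% of the probe sets of an array in WT and 35.7% in BACHD mice. The log2(FC) was -0.53 (SE 0.0790, 95% interval -0.71 to -0.35), the 4th smallest p of all probe sets, with adjusted *p* = 0.981. *Angpt1* was at 7.14, 7.26 and 7.10 in WT and at 7.45, 7.54, 7.44, 7.50 and 7.54 in BACHD mice, with log2(FC) 0.32 (SE 0.0513, 95% interval 0.21 to 0.44), the 5th smallest p and the same adjusted *p* of 0.981. The exact permutation p was 0.0179 for each, as low as this test can go with 5 and 3 mice, and of all probe sets 1.56% were lower and 1.93% higher without overlap. In the 8 fits that left out 1 mouse *Cd36* stayed between -0.56 and -0.47 and *Angpt1* between 0.29 and 0.37.

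With *Cd36* and *Angpt1*, *Abcb1a* made up the 3 of 10 genes with an unadjusted p under 0.05 by limma at this age, against 4.55% of all probe sets. *Abcb1a* was at 8.36, 8.46 and 8.34 in WT and at 8.61, 8.74, 8.67, 8.40 and 8.92 in BACHD mice, with replicate 4 inside the WT range and log2(FC) 0.28 (SE 0.105, adjusted *p* = 0.997). BACHD replicate 4 was also the lowest of its group for *Tek* (7.94), *Cldn5* (9.40), *Slco1c1* (9.14), *Slc2a1* (11.42) and *Pecam1* (7.70). *Mfsd2a* was at 0.12 (95% interval -0.04 to 0.27), the opposite direction of that in the injected mice. *Cldn5* (-0.04), *Tek* (-0.03), *Pecam1* (-0.01) and *Slco1c1* (0.01) lay close to 0, with the widest interval, -0.35 to 0.27, for *Cldn5*.

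No gene of the 18 lists passed at either BACHD age. At 10 months *Cd74* (0.998, SE 0.236) and *Lcn2* (1.002, SE 0.241) had an unadjusted p under 0.05 by limma, 2 of the 11 genes of endothelial activation, whose mean ran from 7.21 to 7.38 in WT and 7.33 to 7.61 in BACHD mice. The smallest p values of the lipid list were those of lipoprotein lipase *Lpl* (0.26, SE 0.0861) and the acyl-CoA synthetase *Acsl4* (0.10, SE 0.0396), and of the angiopoietin and VEGF list that of the TIE2 ligand *Angpt2* (0.25, SE 0.116). The endothelial identity mean was 7.90 ± 0.0365 (SD, n = 3) in WT and 7.95 ± 0.134 (n = 5) in BACHD mice, and with it as a covariate *Cd36* was at -0.51 and *Angpt1* at 0.33. The mean of 5 blood cell genes did not overlap, with 6.68 to 6.77 in WT and 6.87 to 7.10 in BACHD mice, led by *Alas2* (0.34) and *Ppbp* (0.61), and its part in the *Cd36* and *Angpt1* values was not tested. The pituitary mean ran from 6.08 to 7.60 in WT and 6.29 to 7.83 in BACHD mice, and with it as a covariate *Cd36* was at -0.54 and *Angpt1* at 0.32. All 8 thalamus genes had a positive log2(FC) (median 0.34), with a mean of 9.36 to 10.05 in WT and 9.63 to 10.61 in BACHD mice. Within groups at this age the thalamus mean had r = -0.46 with *Cd36* and -0.67 with *Angpt1*. With it as a covariate, a setting chosen after seeing the data, *Cd36* was at -0.47, *Angpt1* at 0.37, *Cldn5* at -0.18 and *Tek* at -0.10, and none passed. The choroid plexus and ependyma mean ran from 7.58 to 7.71 in WT and 7.49 to 7.74 in BACHD mice. Within groups it had r = 0.78 with *Cd36* and 0.56 with *Angpt1*, and its part in their values was not tested. Of the age by genotype terms, which test whether the BACHD difference changed between 2 and 10 months, none passed, in the set or elsewhere (0%). The term was -0.25 for *Cd36* (95% interval -0.63 to 0.12), 0.29 for *Angpt1* (-0.01 to 0.60) and 0.29 for *Abcb1a* (-0.12 to 0.69).

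Within groups the 10 genes differed in how far they followed the endothelial transcripts from mouse to mouse. After each group mean was subtracted, Pearson's r with the endothelial identity mean over the 38 arrays was 0.89 for *Abcb1a*, 0.88 for *Tek*, 0.77 for *Cldn5*, 0.72 for *Slco1c1*, 0.65 for *Slc2a1* and 0.56 for *Pecam1*. It was 0.27 for *Ocln*, -0.23 for *Mfsd2a*, -0.26 for *Angpt1* and -0.36 for *Cd36*. *Tek* (0.88, 0.90 and 0.86 in the AAV, 2 months and 10 months arrays) and *Abcb1a* (0.85, 0.95 and 0.74) kept this in each set. *Cldn5* was lower in the AAV arrays (0.41, against 0.87 at each BACHD age). There it lay close to *Ocln* (0.40), which was at 0.30 at 2 months and 0.13 at 10 months. *Slc2a1* ran from 0.51 to 0.83 and *Pecam1* from 0.44 to 0.75 over the sets, whereas *Mfsd2a* ran from -0.55 at 2 months to 0.24 at 10 months. These correlations describe arrays that share a dissection and a normalisation, and they carry no p.

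**Figure D4:**
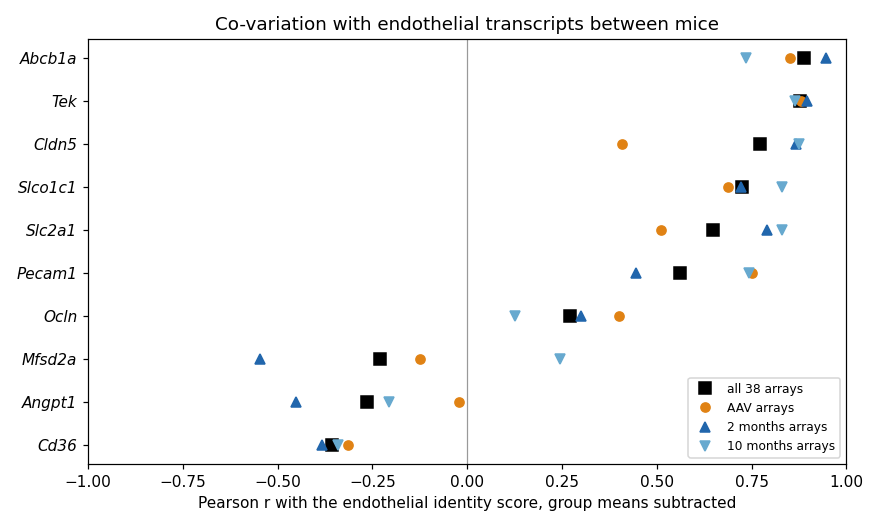
Pearson's r (horizontal axis) of each gene with the mean of 24 endothelial identity genes after subtraction of group means, over all 38 arrays (squares) and within the AAV, 2 months and 10 months arrays (circles and triangles). *Abcb1a* (0.89) and *Tek* (0.88) stand at the top and *Cd36* (-0.36) at the bottom.

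The genes most like each member over the same 38 arrays, out of all genes with a single symbol, differed accordingly. For *Tek* the closest were the endothelial phosphatase *Ptprb* (r = 0.92), *Coro6* (0.84) and the chemokine *Cxcl12* (0.84), and for *Abcb1a* the VEGF receptor *Flt1* (0.88), *Ptprb* (0.87) and the endothelial receptor *Adgrl4* (0.83). *Slc2a1* was closest to the amino acid carrier *Slc7a5* (0.69), *Acvrl1* (0.68) and *Esam* (0.67), *Slco1c1* to *Flvcr2* (0.79), *Olfr508* (0.75) and *Cpox* (0.74), and *Cldn5* to the taurine carrier *Slc6a6* (0.83), *Miga2* (0.83) and *Sirt4* (0.81). Genes of the endothelial identity list were thus among the closest of *Tek*, *Abcb1a* and *Slc2a1*. For *Mfsd2a* the closest were *Ten1* (0.73), *Ndufc1* (0.72) and *Tle5* (0.71), and for *Cd36* they were *Sulf1* (0.77), *Pwwp3b* (0.77) and *Il13ra1* (0.77). *Pecam1* was closest to *Vsir* (0.73), *Cav2* (0.70) and *Prkd3* (0.70), *Angpt1* to *Gstp1* (0.63), *Alad* (0.62) and *Itgb1* (0.62), and *Ocln* to *Abhd8* (0.60), *Sft2d1* (0.57) and *Fam234a* (0.56). Not every pair held in each set of arrays. At 10 months r was 0.02 for *Angpt1* and *Gstp1*, 0.27 for *Mfsd2a* and *Ten1* and 0.40 for *Tek* and *Coro6*. At 2 months it was 0.20 for *Pecam1* and *Prkd3*. *Tek* and *Ptprb* stayed between 0.86 and 0.95 over the sets. Among the members themselves the highest r was that of *Abcb1a* and *Tek* (0.80), followed by *Cldn5* and *Tek* (0.76), and the lowest were those of *Cd36* and *Tek* (-0.48) and of *Mfsd2a* and *Cldn5* (-0.43).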

How the data were processed

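The authors read the array files with ReadAffy and deposited log2 intensities after RMA (R 4.1.1, affy 1.70.0, limma 3.48.3 in the submitters' processing notes), 34760 probe sets for 38 arrays. They were used as deposited, without a filter. Groups came from the sample labels. Identical values (tolerance 1e-09) numbered 0 for each pair of arrays across the AAV, 2 months and 10 months sets, and 0 to 9, 0 to 17 and 5 to 22 within them. As some pairs within a set also shared 0, separate RMA runs were not settled, and comparisons were made within sets. Symbols came from the platform table (1 symbol for 21640 probe sets, several for 1321, 11799 not listed). Of 239 list entries 221 had a single-symbol probe set and the others were not analysed here. Some genes stand on several lists. limma 3.58.1 in R 4.3.3 (lmFit, contrasts.fit, eBayes) was run on all probe sets, with Benjamini-Hochberg adjustment over all of them and calls at 0.05. The AAV arrays shared a fit, the BACHD ages were fitted alone, and both ages together gave the age by genotype term. 18Q vs. WT and 79Q vs. WT share their 5 WT control arrays. Exact permutation tests were two-sided and not adjusted over genes. The limma comparisons between groups were tested on simulated data and the permutation test on a made-up example. The other steps were not tested in this way. The number of mice limits the precision. Named list genes were the up to 4 called genes with the smallest p, or else the 2 with the smallest p. The members and lists were chosen with earlier results of these data known. Likeness took the 3 genes with the highest r. Alternatives were array centring, another variance prior, a filter on dim probe sets, covariates, a replicate block, fewer arrays in the fit, leaving out each mouse and, chosen after seeing the data, values relative to the endothelial mean and the thalamus mean as a covariate at 10 months.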

Additional observations from a re-analysis of the deposited data

Results flagged for a closer look

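In 4 of 60 combinations of gene and group with 4 or more mice, a mouse lay far from the others of its group by Dixon's criterion, which chance passes in about 1 of 20. *Cd36* was lowest in BACHD 10 months replicate 3 (6.16, the next 6.44), *Slco1c1* highest in WT control replicate 1 (9.56, the next 9.30), *Pecam1* lowest in WT 2 months replicate 7 (7.17, the next 7.35) and *Angpt1* highest in 79Q replicate 1 (7.68, the next 7.28).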

How the results depend on the processing

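Of 413 values of the 10 genes under other settings, 372 kept their direction and side of the threshold, 35 changed sign, 5 lost a call and 1 gained one. The largest value that changed sign was 0.18 (*Abcb1a* in 18Q vs. WT). The count of genes called in 18Q vs. WT went from 2 to 3 when the dimmer probe sets were left out (*Slco1c1*, adjusted *p* = 0.0396) and to 0 with the endothelial mean as a covariate. It was 1 with only the arrays compared (*Cldn5*, adjusted *p* = 0.0838), relative to the endothelial mean (*Cldn5* 0.22, adjusted *p* = 0.0814) and with the replicate number as a block (*Cldn5* 0.34, adjusted *p* = 0.102). The count over all probe sets moved as well, from 735 in the main fit to 665 without the dimmer probe sets and 202 with the covariate. It was 573 with only the arrays compared, 3208 relative to the endothelial mean and 555 with the block. *Mfsd2a* for 79Q vs. WT passed under all settings run. Leaving out 1 mouse gave 0 to 3 genes in 18Q vs. WT, 1 to 2 for 79Q vs. WT and 0 in the other comparisons. Over all probe sets these fits gave 472 to 1129 calls in 18Q vs. WT and 439 to 811 for 79Q vs. WT.

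The log2 values that changed sign were these, and the cause was not tested. Centring arrays on their medians gave *Ocln* -0.00115 in 18Q vs. WT, *Ocln* -0.00424 for 79Q, *Angpt1* 0.0110 between the injected groups, *Slc2a1* 0.00379 and *Abcb1a* 0.0456 at 2 months and *Mfsd2a* -0.0354 in the age term. The endothelial covariate gave *Cd36* 0.0335, *Slc2a1* -0.00884, *Abcb1a* -0.0277, *Ocln* -0.0248 and *Pecam1* -0.12 in 18Q vs. WT, *Abcb1a* -0.0384, *Ocln* -0.0227 and *Pecam1* -0.0762 for 79Q, *Ocln* 0.00205, *Pecam1* 0.0438 and *Tek* 0.0102 between the injected groups and *Slco1c1* -0.0255 at 10 months. Values relative to the endothelial mean were *Slc2a1* -0.0758, *Ocln* -0.11 and *Pecam1* -0.0733 in 18Q vs. WT, *Ocln* -0.0848 and *Pecam1* -0.0434 for 79Q, *Cd36* 0.00367, *Ocln* 0.0284, *Pecam1* 0.0299 and *Angpt1* 0.0425 between the injected groups, *Slco1c1* -0.0344 at 10 months and *Mfsd2a* -0.0146 in the age term. The thalamus covariate gave *Angpt1* -0.0264 at 2 months and *Slco1c1* -0.0306 at 10 months. The pituitary covariate gave *Slco1c1* -0.0151 at 10 months. The replicate block gave *Cd36* 0.0139 in 18Q vs. WT and *Cldn5* 0.0429 and *Pecam1* 0.0145 at 10 months. Leaving out 1 mouse changed the sign of *Cd36* (-0.0942 to 0.0113) in 18Q vs. WT, *Slc2a1* (-0.0404 to 0.0197) for 79Q, *Ocln* (-0.0332 to 0.00957), *Pecam1* (-0.0902 to 0.0520), *Tek* (-0.10 to 0.0167) and *Angpt1* (-0.0647 to 0.0259) between the injected groups, *Abcb1a* (-0.0790 to 0.0804), *Tek* (-0.0560 to 0.13) and *Angpt1* (-0.0173 to 0.0792) at 2 months, *Slco1c1* (-0.0195 to 0.0660), *Cldn5* (-0.0936 to 0.0624), *Pecam1* (-0.0729 to 0.0972) and *Tek* (-0.0754 to 0.0199) at 10 months and *Mfsd2a* (-0.0329 to 0.0629), *Pecam1* (-0.12 to 0.04998) and *Tek* (-0.16 to 0.0214) in the age term.

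The deviations of mice with the same number had r of -0.31 to 0.28, over 0.1 for 2 of the pairs at 2 months and for 0 elsewhere. Whether such mice shared more than a number cannot be settled from these correlations and was not tested. Apart from the lost *Cldn5* call given above, the block changed no call. As each gene has 1 probe set, averaging probe sets gave no other value, and with dim probe sets left out *Cd36*, *Ocln* and *Angpt1* gave none in most comparisons.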
